A study of Homo sapiens with 9 samples.

Results

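The comparison described here is that of pralatrexate with vehicle at day 10 of a pooled knockout screen, which asks which knockouts cost or favour RH4 cells when the drug is present. Its members are the 6 libraries that the labels give as day 10 with vehicle or day 10 with pralatrexate, 3 of each, out of 9 libraries in the series. The other 3 are baseline libraries, taken after selection, and they entered the statistical fit. RH4 is an established human alveolar rhabdomyosarcoma line that carries the PAX3::FOXO1 fusion, so all groups share the fusion, and no other line was screened here. All cells also carried Cas9 with 1 single guide RNA (sgRNA) of the Brunello kinome library and had been selected over 72 h in puromycin, at 0.25 µg/ml. After recovering for a further 72 h they grew with vehicle or with 1.5 nM pralatrexate for 10 days. RNA was not measured, so the identity of the line could not be checked against marker genes.

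Pralatrexate is an antifolate, a folate analogue that is carried into cells, given a tail of glutamates and held there, where it blocks the folate cycle. Folates carry the single carbons used for thymidylate and purine synthesis, so antifolates act mainly on cells that replicate their DNA. In a pooled screen each sgRNA marks the cells it was delivered to, so a knockout that slows growth under the drug lowers the share of reads of its sgRNAs relative to vehicle, and one that favours growth raises it. A lower share is called depletion and a higher share enrichment.

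The library targeted 763 genes, with 4 sgRNAs per gene, and held 100 non-targeting sgRNAs. The vehicle libraries held 3194504 to 4602712 reads and the pralatrexate libraries 2468136 to 4227230, and pralatrexate replicate 2 was the shallowest. No library stood apart in its evenness, since the Gini index of all 6 lay between 0.285 and 0.289. Common essential genes had dropped out alike. The median log2 level of 42 such genes relative to that of the non-targeting sgRNAs was −2.21 ± 0.05 with vehicle and −2.21 ± 0.07 with pralatrexate (SD, n = 3 libraries each).

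Most knockouts moved little. Over all 763 genes the log2 fold change of pralatrexate over vehicle, taken as the mean of a gene's sgRNAs, had a median of 0.01 and an SD of 0.10, and 729 genes lay within 0.2 of 0. The 95% interval of the difference, from limma on gene means, lay wholly between −0.5 and 0.5 for 748 genes, with a median half-width of 0.16. So for those genes a change beyond 0.5 in the mean of the sgRNAs lay outside the interval. The interval holds the spread among libraries and not that among a gene's sgRNAs. The interval of 8 genes reached −0.5 or below, and that of 7 genes reached 0.5 or above.

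Single sgRNAs carried larger errors. The log2 fold change of 98.3% of the 3046 targeting sgRNAs lay within 0.5 of 0, and their SD was 0.19, against 0.14 for the 99 non-targeting ones. The central 95% of the non-targeting sgRNAs ran from −0.27 to 0.26. The replicate numbers paired the day 10 libraries, so a change could also be taken within each of the 3 pairs. The changes in different pairs were nearly unrelated across sgRNAs, with correlations of −0.01, 0.11 and 0.07 over 3145 sgRNAs, which are not independent replicates. Over the 763 genes the correlations were 0.05, 0.15 and 0.14, and over the 99 non-targeting sgRNAs 0.03, 0.04 and 0.14. The 4 genes called depleted were each lower in all 3 pairs, as were 96 of all 763 genes (12.6%). They were called from these same libraries, so their agreement across pairs is no independent check.

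Of 763 genes, 4 passed the test for depletion (0.524%) and none passed that for enrichment (0%), by robust rank aggregation of edgeR p-values at a false discovery rate (FDR) of 0.05. The depleted genes were CDK12, PIK3R1, TAF9 and NADK. With the pairs as a block, PLK2 passed as well, which made 5 of 763 (0.655%). At an unadjusted p under 0.05 the shares were 30 genes for depletion (3.93%) and 41 for enrichment (5.37%). Of other tools, limma on gene means called 1 gene enriched (PFKL) and edgeR on reads summed per gene called 1 (CAD). Of single sgRNAs, 1 of 3145 (0.0318%) passed an FDR of 0.05, an NADK sgRNA that fell, and 176 (5.60%) had an unadjusted p under 0.05. With the block, 4 sgRNAs passed (0.127%): the same NADK sgRNA and 2 CDK12 sgRNAs fell, and the second MYLK2 sgRNA rose. The study calls its repeats parallel cultures in one place and technical replicates in another, so all p-values here refer to the spread among libraries, and that spread may be technical.

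**Figure D1:**
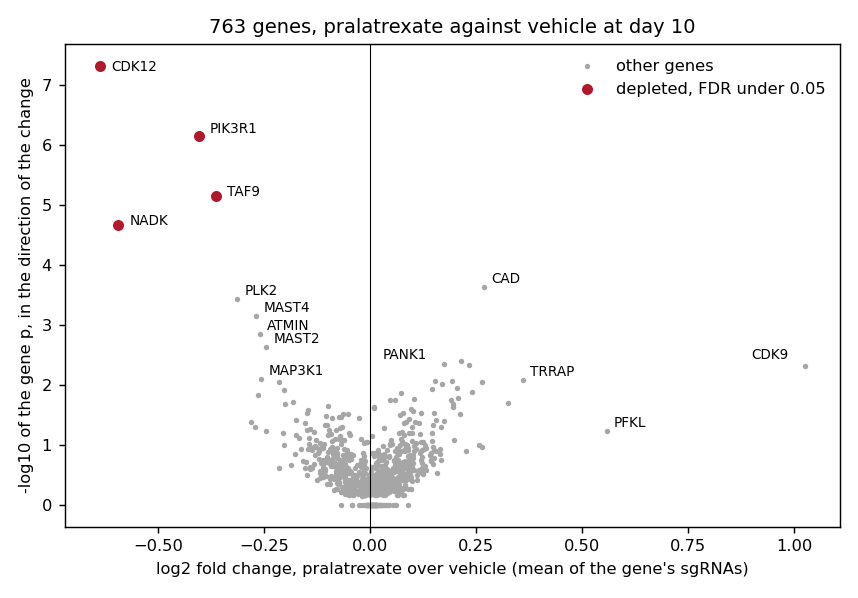
Each of 763 genes is plotted by its log2 fold change, pralatrexate over vehicle (x axis), and by −log10 of the p for the direction of that change (y axis). The 4 depleted genes CDK12, PIK3R1, TAF9 and NADK stand above all others on the left, and no gene on the right passed an FDR of 0.05.

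Counts of direction were nearly even on both sides. All 3 pralatrexate libraries lay below all 3 vehicle libraries for 26 genes (3.41%) and above them for 28 (3.67%). The change was negative in all 3 pairs for 96 genes (12.6%) and positive for 103 (13.5%). Of 757 genes with 4 sgRNAs tested, 53 had all of them lower (7.00%) and 49 all of them higher (6.47%). Both conditions together, 4 of 4 sgRNAs and 3 of 3 pairs, were met by 28 genes on the lower side (3.70%) and 28 on the higher side (3.70%).

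CDK12 gave the lowest p. It encodes the kinase that, with cyclin K, phosphorylates RNA polymerase II during elongation and is known for keeping long DNA repair genes expressed. Its level, the mean log2 CPM (CPM, reads scaled to a common library total) of its sgRNAs, was 8.17, 8.23 and 8.04 in vehicle replicates 1 to 3 and 7.58, 7.75 and 7.08 in the pralatrexate ones. The groups did not overlap, and pralatrexate replicate 3 was the lowest.

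CDK12 fell by 0.64 ± 0.26 on the log2 scale (SD over 4 sgRNAs), to 0.643 of vehicle, with an FDR of 3.7e-05. The 95% interval of the difference from limma ran from −0.93 to −0.42. Within pairs 1 to 3 the change was −0.58, −0.48 and −0.96. All 4 sgRNAs were lower, at −0.67, −0.32, −0.95 and −0.61, numbered in the order of the count table. The third CDK12 sgRNA had 157, 215 and 177 CPM with vehicle and 67.2, 134 and 85.5 with pralatrexate. No single sgRNA or library carried the gene: it remained depleted without its strongest sgRNA and without any one of the day 10 libraries. Already with vehicle CDK12 stood at −0.54 relative to baseline, which did not pass the test (FDR 0.0654), and with pralatrexate it stood at −1.17 relative to baseline. The comparisons of vehicle with baseline and of pralatrexate with vehicle share the vehicle libraries. CDK13, the closest relative of CDK12, stood at −0.07, with a limma interval from −0.22 to 0.08.

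NADK showed the strongest single sgRNA. NADK is the cytosolic NAD kinase, which makes NADP from NAD and so supplies the NADPH of reductive syntheses. Its level was 7.73, 7.82 and 7.72 log2 CPM with vehicle and 7.27, 7.16 and 7.04 with pralatrexate. Every pralatrexate library lay well below the vehicle range.

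NADK fell by 0.59 ± 0.51 (SD, 4 sgRNAs; FDR 0.00409; limma interval −0.75 to −0.45), to 0.663 of vehicle, with −0.46, −0.65 and −0.68 within the pairs. Its sgRNAs differed among themselves more than those of the other depleted genes, at −0.27, −0.11, −0.75 and −1.25. The fourth NADK sgRNA passed the test on its own (FDR 0.00239). It had 191, 246 and 209 CPM with vehicle and 89.7, 119 and 65.0 with pralatrexate. The gene no longer passed without this sgRNA, at −0.38. That test scores the sgRNAs left after removing the strongest as if drawn at random, which makes it stricter for every gene. NADK also did not pass without vehicle replicate 2 (FDR 0.0573) or without pralatrexate replicate 2 (FDR 0.0594). In those last 2 cases its log2 fold change was −0.57 and −0.61. With vehicle alone NADK stood at −0.02 relative to baseline. NADK2, the mitochondrial NAD kinase, stood at −0.12 with a limma interval from −0.27 to 0.03, so the library holds both enzymes that make NADP and 1 of them was depleted, while the difference between them was not tested.

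PIK3R1 encodes p85α, the regulatory subunit that stabilises and restrains the catalytic subunits of class I phosphoinositide 3-kinase. Its level was 8.28, 8.56 and 8.48 log2 CPM with vehicle and 8.04, 8.12 and 7.98 with pralatrexate. The groups did not overlap, but pralatrexate replicate 2 and vehicle replicate 1 lay close to each other.

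PIK3R1 fell by 0.40 ± 0.08 (SD, 4 sgRNAs; FDR 0.000277; limma interval −0.57 to −0.21), with −0.24, −0.44 and −0.50 within the pairs. Its 4 sgRNAs were the most alike of the depleted genes, at −0.38, −0.44, −0.49 and −0.30. Without vehicle replicate 2 the gene stood at −0.33 and did not pass (FDR 0.0896), and neither did NADK or TAF9. In that library the PIK3R1 sgRNA listed as number 3 had 384 CPM against 186 and 243 in the other vehicle libraries. Whether this sgRNA accounts for the lost call was not tested. Set against baseline, PIK3R1 stood at 0.45 with vehicle and at 0.05 with pralatrexate. The value with vehicle did not pass the test for enrichment (FDR 0.259). The vehicle libraries enter that comparison and the one with pralatrexate with opposite signs.

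TAF9 encodes a subunit shared by the general factor TFIID and the SAGA coactivator. Its level was 8.14, 8.19 and 8.17 log2 CPM with vehicle and 7.81, 7.85 and 7.74 with pralatrexate. Each group was tight and the gap between them was wide.

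TAF9 fell by 0.36 ± 0.27 (SD, 4 sgRNAs; FDR 0.00178; limma interval −0.50 to −0.22), with −0.32, −0.34 and −0.42 within the pairs. Of its sgRNAs 3 were lower, at −0.61, −0.48 and −0.38, and the third was at 0.02. TAF9 no longer passed without its strongest sgRNA (FDR 0.13), in the same stricter test. It also did not pass without vehicle replicate 2 (FDR 0.0866) or vehicle replicate 3 (FDR 0.168). Nor did TAF9 pass without pralatrexate replicate 2 (FDR 0.0892) or pralatrexate replicate 3 (FDR 0.0639). Its log2 fold change stayed between −0.38 and −0.34 without single libraries. In GENCODE the TAF9 gene shares its locus with AK6, a nuclear adenylate kinase transcribed from the same strand, and its first bases overlap the start of RAD17 on the other strand. The files name sgRNAs by gene and give no sequence, so which of these transcripts each sgRNA cuts was not determined.

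**Figure D2:**
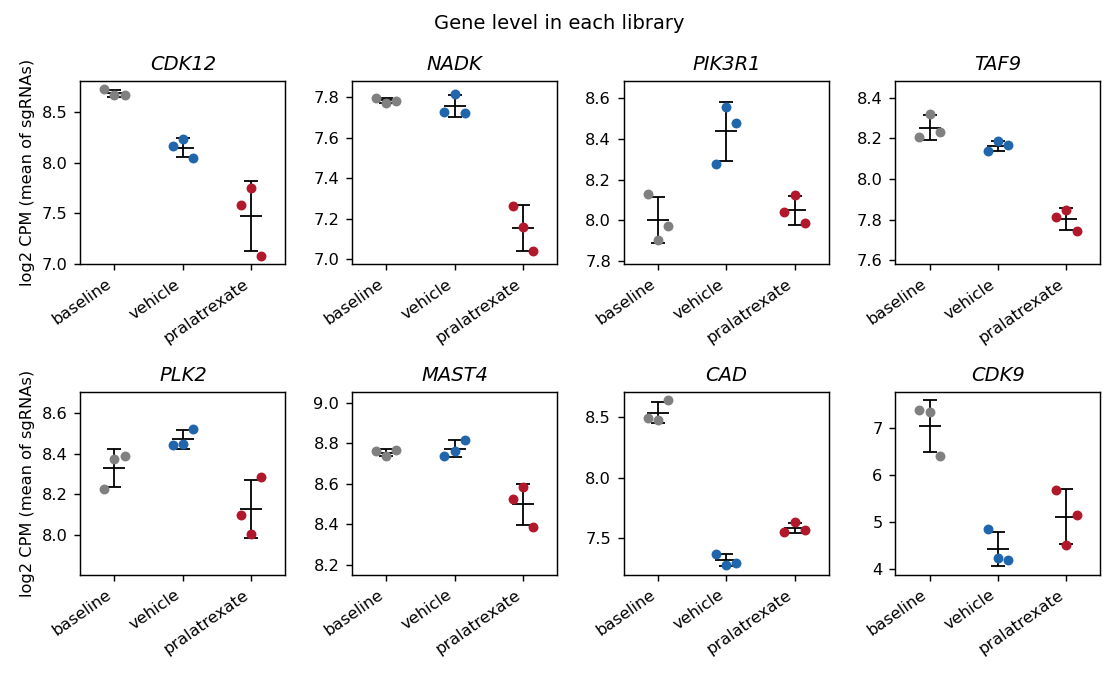
The level of 8 genes in each of the 9 libraries is shown as mean log2 CPM of the gene's sgRNAs (y axis, a separate range in each panel), with points for libraries and bars for the mean ± SD of 3. For CDK12, NADK, PIK3R1, TAF9, PLK2 and MAST4 every pralatrexate point lies below every vehicle point, for CAD every one lies above, and for CDK9 the groups overlap.

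Next in order of p came PLK2, MAST4, ATMIN, MAST2 and MAP3K1. PLK2 is a polo-like kinase known for its part in centriole duplication and stress responses. PLK2 stood at −0.31 ± 0.13 (SD, 4 sgRNAs), with an FDR of 0.0557 that became 0.00893 with the pairs as a block. Its level was 8.44, 8.45 and 8.52 log2 CPM with vehicle and 8.10, 8.004 and 8.28 with pralatrexate, and all 4 sgRNAs were lower.

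MAST4, a microtubule-associated serine/threonine kinase, stood at −0.27 ± 0.16 with all 4 sgRNAs lower (FDR 0.089). Its level was 8.74, 8.76 and 8.82 log2 CPM with vehicle and 8.53, 8.58 and 8.39 with pralatrexate. MAST4 passed the test when vehicle replicate 1 (FDR 0.0494) or pralatrexate replicate 1 (FDR 0.0179) was left out. MAST2, its relative on another chromosome, stood at −0.25 ± 0.15 (FDR 0.224), also with 4 of 4 sgRNAs lower. ATMIN, a cofactor of the ATM kinase, stood at −0.26 ± 0.42 (FDR 0.153), and its groups overlapped. Without vehicle replicate 3 ATMIN stood at −0.02. In that library its second sgRNA had 464 CPM against 113 and 110 in the other vehicle libraries. Whether this sgRNA accounts for the shift was not tested. MAP3K1, a kinase upstream of JNK signalling, stood at −0.26 ± 0.13 (FDR 0.672), with 4 of 4 sgRNAs lower and groups apart.

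The remaining genes among the 15 lowest p-values were CAMKK2, GLYCTK, MAP3K9, CKMT1A, PKMYT1 and TPD52L3, between −0.10 and −0.26 with FDRs of 0.673 to 0.983. Pairs did not agree for several of these: GLYCTK stood at −0.61 in pair 1 and −0.01 in pair 3, and MAP3K9 at −0.61 in pair 2 and 0.06 in pair 3. CKMT1A was tested on 3 sgRNAs, since 1 was below the read minimum.

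**Figure D3:**
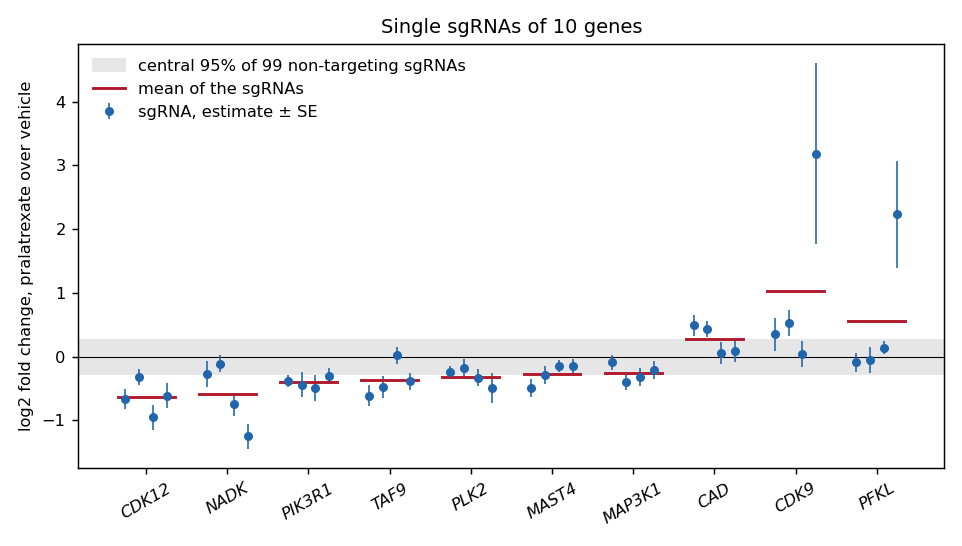
Single sgRNAs of 10 genes are plotted as log2 fold change, pralatrexate over vehicle, with their standard error (points and bars), the gene mean (red line) and the central 95% of the non-targeting sgRNAs, −0.27 to 0.26 (grey band). The sgRNAs of PIK3R1 lie close together below the band, those of NADK spread from −0.11 to −1.25, and the means of CDK9 and PFKL rest on 1 sgRNA each.

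Of the genes at the top of the depletion list, several lie close together on the long arm of chromosome 5. This was seen after the values were known and is a description, with no test. Positions are gene spans on GRCh38 from GENCODE v44, where 761 of the 763 genes could be placed. PIK3R1 and TAF9 start 1.15 Mb apart, and 8 library genes, these 2 included, start within 15 Mb of PIK3R1. In order along the chromosome they are MAP3K1, PLK2, MAST4, PIK3R1, CDK7, TAF9, COL4A3BP and CKMT2, and 5 of them are among the 9 genes with the lowest p for depletion.

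MAP3K1 at chr5:56815549-56896152 and PLK2 at chr5:58453982-58460139 stood at −0.26 and −0.31. MAST4 at chr5:66596380-67169593 stood at −0.27, and PIK3R1 at chr5:68215740-68301821 fell by 0.40. TAF9 at chr5:69362026-69370013 fell by 0.36. These 5 genes span 12.5 Mb from the first start to the last. Of their 20 sgRNAs 19 were lower, beside 50.3% over all placed genes. The 5 genes were taken for their low p for depletion, so that count largely follows from the choice. None of these genes was lower than −0.09 with vehicle relative to baseline, where they ranged up to 0.45. That comparison shares the vehicle libraries with the one of pralatrexate and vehicle.

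The other 3 of the 8 genes stood nearer to 0. CDK7, a kinase of the general factor TFIIH and of CDK activation, starts 0.127 Mb from TAF9 and stood at −0.06 with 2 of 4 sgRNAs lower. CDK7 was already at −1.61 with vehicle relative to baseline, and its pairs stood at −0.38, 0.02 and 0.12. COL4A3BP, a ceramide transfer protein, stood at −0.15 with 4 of 4 sgRNAs lower and pairs at −0.22, −0.33 and 0.12. CKMT2, a mitochondrial creatine kinase, starts 13.02 Mb from PIK3R1 and stood at −0.07 with 3 of 4 sgRNAs lower.

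The median over the 8 genes was −0.26, and it was −0.23, −0.33 and −0.23 within pairs 1 to 3. Of their 32 sgRNAs 28 were lower (87.5%), beside 50.3% over all placed genes. The groups did not overlap for 5 of the 8 genes, against 3.41% of all genes on this side. Those 5 are the genes taken above for their low p, and the window is centred on a called gene. The shares are therefore not independent of the values that drew attention to the region. On the short arm 5 library genes, from FASTKD3 to NIM1K, had a median of −0.04 and ranged from −0.12 (NADK2) to 0.09 (PRKAA1). The other 22 genes of the long arm, from RIOK2 onwards, had a median of −0.03 and ranged from −0.14 (PPIP5K2) to 0.19 (CSNK1A1), with 44 of their 88 sgRNAs lower. The library has no gene in the 13.6 Mb before MAP3K1, back to NIM1K, and none in the 15.9 Mb between CKMT2 and RIOK2.

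**Figure D4:**
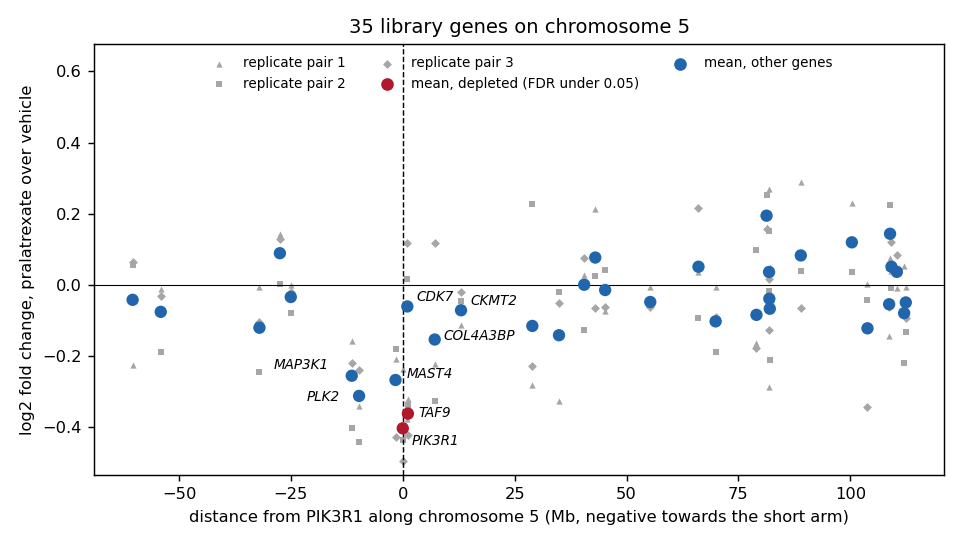
The 35 library genes on chromosome 5 are plotted by distance from PIK3R1 in Mb (x axis, dashed line at PIK3R1) and log2 fold change, pralatrexate over vehicle (y axis), with large points for the gene means and small grey ones for the 3 replicate pairs. The 8 genes within 15 Mb of PIK3R1 have a median of −0.26, while the other genes of the chromosome lie between −0.14 and 0.19.

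No library neighbour of the other 2 depleted genes passed the test. Within 15 Mb of CDK12 on chromosome 17 the 20 library genes had a median of 0.00 and ranged from −0.15 (MPP2) to 0.09 (DCAKD). Within 15 Mb of NADK on chromosome 1 the 11 library genes had a median of −0.02 and ranged from −0.08 (PIK3CD) to 0.12 (SRM). Over the 21 chromosomes with at least 10 library genes, chromosome 5 had the lowest median, −0.06 over 35 genes, and the others lay between −0.04 (chromosome 16) and 0.05 (chromosome 22). Chromosome 18, with 6 library genes, had a median of −0.08. A depletion that follows position and one that follows the function of each gene cannot be told apart with these libraries, and copy number was not measured.

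On the side of enrichment, CAD had the lowest p (0.000234, FDR 0.178). CAD encodes the enzyme that starts pyrimidine synthesis, with carbamoyl phosphate synthetase, aspartate transcarbamylase and dihydroorotase activities. Its level was 7.37, 7.28 and 7.29 log2 CPM with vehicle and 7.55, 7.63 and 7.57 with pralatrexate. The groups did not overlap, and all 4 sgRNAs were higher, at 0.49, 0.43, 0.05 and 0.10, with a mean of 0.27 ± 0.23.

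CAD was already depleted with vehicle relative to baseline, at −1.23 (FDR 0.00495). It stood at −0.96 with pralatrexate relative to baseline, and the limma interval of the difference between the arms ran from 0.12 to 0.41. When reads were summed per gene and tested with edgeR, CAD passed for enrichment, at 0.30 (FDR 0.0178). In the rank aggregation it did not pass under any alternative.

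The 9 genes that followed were CDK2, PANK1, MST1, CDK9, TRRAP, SPEG, ILK, MYLK2 and AXL, all with an FDR of 0.73. CDK2, a cell cycle kinase, stood at 0.21 ± 0.14, and PANK1, a pantothenate kinase of coenzyme A synthesis, at 0.17 ± 0.03, both with 4 of 4 sgRNAs higher and groups apart. TRRAP, a scaffold of histone acetyltransferase complexes, stood at 0.36 ± 0.40 with 3 of 4 sgRNAs higher. Of the 10 genes led by CAD, 4 (CAD, CDK2, CDK9 and TRRAP) were depleted with vehicle relative to baseline, where 51 of 763 genes were (6.68%). The vehicle libraries enter both comparisons with opposite signs.

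The highest 2 gene means, those of CDK9 and PFKL, rested on 1 sparse sgRNA each. Reads given here are not scaled to depth. CDK9, which releases paused RNA polymerase II, had the highest mean of all genes, 1.03 ± 1.45, with sgRNAs at 0.35, 0.53, 0.04 and 3.18. The fourth CDK9 sgRNA had 8, 0 and 0 reads with vehicle and 43, 0 and 28 with pralatrexate. PFKL, a liver-type phosphofructokinase, stood at 0.56 through 1 sgRNA at 2.23, which had 10, 7 and 26 reads with vehicle and 48, 38 and 91 with pralatrexate. Its other 3 sgRNAs lay between −0.09 and 0.14. Of the 6 sgRNAs beyond 1 in either direction, 4 had fewer than 200 reads in every day 10 library, and the others were the fourth NADK sgRNA and the second MYLK2 sgRNA.

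The MYLK2 sgRNA, which targets a skeletal muscle myosin light chain kinase, had 59.2, 307 and 89.1 CPM with vehicle and 360.0, 325 and 352 with pralatrexate. Vehicle replicate 2 thus lay far above the other vehicle libraries and close to the pralatrexate ones, and within the pairs the change was 2.59, 0.08 and 1.98. With the other 3 MYLK2 sgRNAs, between −0.18 and 0.08, the gene stood at 0.26 ± 0.62.

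Nucleotide enzymes, the pathway the drug acts on, were examined as lists chosen for this drug. None of the 10 genes of pyrimidine synthesis and salvage passed the test, with a median of 0.05 beside 0.01 over all 763 genes. TK1, the thymidine kinase of thymidine salvage, was the lowest member at −0.05 ± 0.28 (SD, 4 sgRNAs; limma interval −0.20 to 0.10) and CAD the highest. The TK1 sgRNAs were split, at −0.30, 0.28, 0.09 and −0.27. DTYMK, which converts dTMP to dTDP, stood at 0.09 ± 0.42. Relative to baseline it stood at −2.42 with vehicle and at −2.33 with pralatrexate. DCK, the deoxycytidine kinase, stood at 0.00, with a limma interval from −0.16 to 0.17.

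No purine enzyme passed either. The 14 members had a median of 0.01 and ranged from −0.11 (AK7) to 0.11 (PRPS1L1). ADK, the adenosine kinase, stood at 0.01 ± 0.34 (SD, 4 sgRNAs), with a limma interval from −0.16 to 0.18. The 9 nucleoside diphosphate kinases of the NME family had a median of −0.06 and ranged from −0.15 (NME6) to 0.12 (NME8), with 7 of 9 below 0.

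Of 13 NAD and cofactor kinases 1, NADK, was depleted, beside 0.524% of all genes, and the list had a median of 0.00 and reached 0.17 with PANK1. The transcription and chromatin list had 2 depleted members of 20, CDK12 and TAF9, beside 4 of all 763 genes (0.524%), with a median of 0.02. CDK9 was its highest member. The list of 19 genes of PI3K, AKT and mTOR signalling had 1 depleted member, PIK3R1, beside the same 0.524%, and a median of 0.01, with SGK3 highest at 0.13.

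The other lists had no depleted or enriched member. The replication checkpoint and DNA damage list, with 17 genes, had a median of −0.04 and ran from ATMIN to VRK1 at 0.21. Cell cycle and mitosis genes (26) had a median of 0.01 and ran from CDK1 at −0.25 ± 0.61 to PLK4 at 0.23, and the sign of CDK1 turned without vehicle replicate 1 (0.20). RNA processing and translation genes (22) had a median of −0.02, from CLK2 at −0.17 to CLP1 at 0.33. CLP1 stood at 0.096 without pralatrexate replicate 1, and 2 of its sgRNAs were at −0.03 and −0.01. The 37 genes of MAPK cascades had a median of 0.01, from MAP3K1 to MAP3K12 at 0.26, and the 39 receptor tyrosine kinases had a median of 0.01, from IGF1R at −0.14 to AXL at 0.17. IGF1R stood at −0.03 without pralatrexate replicate 2 and at −0.30 without pralatrexate replicate 1. The 9 MAST and polo-like kinases had a median of −0.01, from PLK2 to PLK4.

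Genes that cell lines need in general, and genes that they need rarely, both had medians near that of all genes. The 42 broadly essential genes had a median of −0.02, from SEPHS2 at −0.28 to CDK9, with 24 lower and 18 higher. The 34 genes expressed mainly in the germline or in lymphoid cells had a median of 0.01 and stayed between −0.13 (NEK5) and 0.15 (TSSK4).

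**Figure D5:**
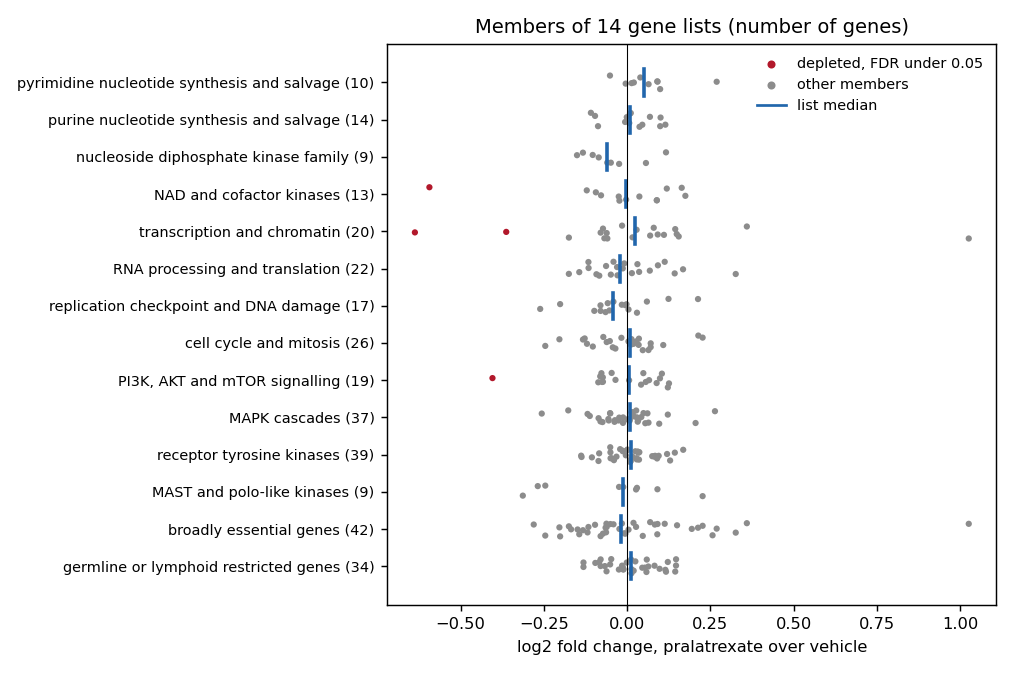
Members of 14 gene lists (rows, with the number of genes) are plotted by log2 fold change, pralatrexate over vehicle (x axis), with a blue line at each list's median and red points for depleted genes. List medians lie between −0.06 and 0.05, and the 4 depleted genes stand apart from the other members of their lists.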

How the data were processed

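The deposited table held raw counts, reads per sgRNA, which the authors had not normalized. The submitters' processing notes name Bowtie 1.0.0. Mismatch settings were not given in the sources used here. Counts are of PCR copies without molecular identifiers, so counting error is a lower limit. The authors also deposited gene tables with fold changes, scores and p-values of their own comparisons, which were not used. All count columns were matched to a library.

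The 7 sgRNAs with a mean under 30 reads over 9 libraries were removed. The remaining 3145 entered a quasi-likelihood model of edgeR 4.0.16 (R 4.3.3) with TMM scaling, all 9 libraries and no term but the group. One-sided p-values were ranked, and the ranks of a gene's sgRNAs with p under 0.25 were aggregated (RRA) with an exact null and adjusted by Benjamini and Hochberg over 763 genes. Levels are log2 CPM with a prior count of 2, and intervals come from limma 3.58.1 on gene means. The code was tested on simulated data. DESeq2 1.42.0, other scalings and filters, a replicate block and leaving out each library were alternatives.

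Deviations of same-numbered day 10 libraries from their group means correlated at 0.175, 0.198 and 0.188, so the numbers pair them. Those of different numbers correlated at −0.127 to −0.049. Deviations cancel out within a group, so the negative values follow from the positive ones and add no support. No pair of libraries within a group agreed within sampling noise.

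Named genes were the called genes, the 15 lowest p-values for depletion, the 10 for enrichment, MAST4, sgRNAs past the threshold, list extremes and set nucleotide and cofactor genes. PFKL, CDK7, COL4A3BP, CDK13, CKMT2 and the other genes of chromosome 5 were named after their values were seen. The comparison, lists and rules were chosen with earlier results of these data known.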

Additional observations from a re-analysis of the deposited data

How the results depend on the processing

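The count of depleted genes was 4, and between 4 and 6 under every alternative that kept all libraries and sgRNAs, which were the scalings, the filters, the replicate block, day 10 libraries alone, DESeq2, a stricter sgRNA p, limma on gene means and edgeR on summed reads. It was 2 (CDK12 and PIK3R1) without each gene's strongest sgRNA, where the test is stricter for every gene. Leaving out single libraries gave 1 to 5, with CDK12 alone left without vehicle replicate 2, and CDK12 and PIK3R1 without pralatrexate replicate 2. No gene was enriched except 1 with limma on gene means (PFKL) and 1 with edgeR on summed reads (CAD), and leaving out single libraries gave 0. Of single sgRNAs 1 passed, against 4 in both fits with the replicate block, 13 with DESeq2 and 1 to 3 without single libraries. Apart from PLK2 and these sgRNAs, the replicate block changed no call. The median of the 8 chromosome 5 genes within 15 Mb of PIK3R1 was −0.20 without each gene's strongest sgRNA and −0.28 to −0.24 without single libraries.

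PLK2 passed with the block, with day 10 libraries alone, with non-targeting scaling and with summed reads. MAST4 passed with summed reads. Signs turned only for genes that had not passed. Without each gene's strongest sgRNA ADK stood at −0.076, CDK1 at 0.057, CDK7 at 0.051, DCK at 0.0025, MAP3K12 at −0.0027, MYLK2 at −0.041, NME8 at −0.027, PFKL at −0.00022 and TK1 at 0.022. DCK stood at 0.0069 with the block on day 10 libraries alone, at 0.012 with non-targeting scaling and at 0.0031 with limma. IGF1R stood at 0.041 with summed reads, and MAP3K12 at −0.0019 with a baseline mean of at least 300 reads. Without single libraries ADK ranged from −0.067 to 0.076, AK7 from −0.21 to 0.012, CDK1 from −0.43 to 0.20, CDK7 from −0.23 to 0.068, DCK from −0.072 to 0.047, DTYMK from −0.052 to 0.26 and TK1 from −0.10 to 0.0066. List medians moved by less than their SD over the 3 pairs in 239 recomputations and by more in 27. Causes were not tested. Depth limits sgRNAs with few reads, such as the fourth ones of CDK9 and PFKL.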
